A study of Homo sapiens with 96 samples.

Results

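Iron handling in A549 cells was described through 10 genes of cellular iron uptake, storage, export and sensing, taken by symbol from a count table of 60675 genes. The uptake genes were TFRC, STEAP3 and SLC11A2, the storage genes FTH1, FTL and NCOA4, the export gene SLC40A1, and the sensing genes ACO1, IREB2 and FBXL5. All 10 were in the table and all 10 passed the filter on low counts in both batches. A549 is a human lung adenocarcinoma cell line. The cells had been given extracts of Paeoniae Radix, the peony root used in traditional medicine, or single ingredients of it. In the first batch, 21 libraries held the ethanol extract and the water extract at 20, 100 or 500 µg/mL and vehicle. In the second batch, 75 libraries held oleanolic acid, hederagenin, gallic acid, benzoic acid, paeoniflorin, albiflorin, catechin or paeonol at 0.4, 2 or 10 µM and vehicle. Each of the 32 groups had 3 libraries, and each batch was compared with its own vehicle. The labels give neither the exposure time nor the substance of the vehicle, and they do not say whether the 3 libraries of a group came from separate cultures, so the p-values below measure only the spread between these libraries.

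Cells take up iron bound to transferrin through the transferrin receptor, reduce it in endosomes and carry it into the cytosol, where it is used, stored in ferritin or exported through ferroportin. Control lies with the iron regulatory proteins, which, when iron is scarce, bind hairpins called iron-responsive elements in messenger RNAs. Binding in a 3′ untranslated region protects a transcript such as that of TFRC, and binding in a 5′ untranslated region holds back the translation of ferritin and ferroportin. The ubiquitin ligase subunit FBXL5 senses iron and oxygen and marks the iron regulatory protein encoded by IREB2 for degradation when iron is plentiful.

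The elements themselves are shown because they mark which of the 10 genes carry that hairpin. GENCODE v29 transcripts (build GRCh38) were searched on the transcript strand for CAGTGN with A, C or T as the last base, preceded by 5 bases and a C, and followed by 5 bases that pair with the preceding 5 (G with T allowed). The pattern was found in 4 of the 10 genes, against 214 of 19702 protein-coding genes (1.09%), with matches counted anywhere in a transcript. The matches printed for the 4 genes lay in untranslated regions, and those of the other genes were not sorted by region. TFRC held 4 copies in its 3′ untranslated region, and FTH1, FTL and SLC40A1 held 1 each in the 5′ untranslated region. The sites were in 3 of 4 coding transcripts of TFRC, 7 of 8 of FTH1 and 1 of 1 of FTL. For SLC40A1 the site was in only 1 of 5. Capitals mark the 6 loop bases, read 5′ to 3′ on the gene's strand.
TFRC, chr3:196050981-196051004, minus strand: tatcggaagCAGTGCcttccataa
TFRC, chr3:196050577-196050600, minus strand: tatcgggagCAGTGTcttccataa
TFRC, chr3:196050512-196050535, minus strand: tatcggagaCAGTGAtctccatat
TFRC, chr3:196050465-196050488, minus strand: tatcgggaaCAGTGTttcccataa
FTH1, chr11:61967576-61967599, minus strand: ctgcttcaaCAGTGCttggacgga
FTL, chr19:48965338-48965361, plus strand: ttgcttcaaCAGTGTttggacgga
SLC40A1, chr2:189580663-189580686, minus strand: cttcagctaCAGTGTtagctaagt
A missing match says only that this pattern was absent, and SLC11A2 is known to have transcripts with an element that departs from it. The counts below measure transcript levels, so the translational arm of the system is outside them.

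Iron-poor and hypoxic cells also change TFRC transcription, and 1 short promoter motif was looked up for that reason. RefSeq promoters (build GRCh38.p14) were searched on both strands for ACGTG, the core of the hypoxia response element, which also lies inside the E-box CACGTG. The 9 genes with an entry have 14 promoters in the table, and the 250 bases before the start held it in 3 of these 14 (21.4%), each of another gene, against 18.5% of all 35116 promoters, a share near the background. FTH1 had no entry. The matches are printed with the motif in capitals on the gene's strand, the E-box in full for FBXL5 and the reverse complement for FTL.
TFRC, chr3:196082162-196082190, minus strand: cctcgcgagcgtACGTGcctcaggaagtg
FBXL5, chr4:15655461-15655489, minus strand: cgcgcgcccggtCACGTGggccgcaggga
FTL, chr19:48965286-48965308, plus strand: agccgccctagcCACGTcccctc
The match lay 88 bases before the start of the RefSeq promoter entry of TFRC and 11 bases before that of FTL. These starts differ from the ends of the GENCODE v29 gene spans given below. By those spans, the TFRC and FBXL5 matches lie inside the gene and the FTL match overlaps its first bases. These are matches of letters and not measured binding sites.

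The libraries held 17927973 to 28136782 counts in the first batch and 15678190 to 35599940 in the second. Epithelial markers summed to 4522 to 16853 CPM over all libraries (CPM, counts scaled to the library's total). Most of the sum was keratin, with KRT8, KRT18 and KRT7 at no less than 1357.5, 1248.7 and 1811 CPM. CDH1 stood at 22.5 to 45.9 CPM and EPCAM at 0.807 to 13.2 CPM. The alveolar markers SFTPB, SFTPC and NKX2-1 together reached at most 0.510 CPM in any library, and erythroid markers at most 0.506 CPM. The share of counts from 13 mitochondrially encoded genes was 11.6 to 15.3% in extract libraries and 13.9 to 18.5% in vehicle libraries of the first batch. It was 0.486 to 15.5% in ingredient libraries and 11.6 to 12.1% in vehicle libraries of the second, where 18 ingredient libraries lay under 5.03%, which is 0.5 times the batch median. In 4 ingredient libraries of the second batch, COL1A2, a fibroblast collagen gene, stood at 496 to 595 CPM, against at most 0.899 CPM in the other 71. The summed fibroblast markers were 987 to 1215 CPM in those 4 libraries and 39.2 to 199 CPM in the other ingredient libraries. The listed markers did not all reach such levels. The highest value in any library was 595 CPM for COL1A2, 535 CPM for COL1A1 and 65.7 CPM for COL3A1. It was 11.8 CPM for LUM, 0.961 CPM for DCN and 0.128 CPM for POSTN. THY1 reached 11.9 CPM, against a mean of 11.5 CPM in the first vehicle. Immune markers summed to at most 21.7 CPM and endothelial markers to at most 0.665 CPM. In bulk RNA, fewer cells of a type and less RNA per cell cannot be told apart.

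Positions are those of GRCh38 (GENCODE v29). The uptake genes are TFRC at chr3:196027183-196082189, STEAP3 at chr2:119223831-119265652 and SLC11A2 at chr12:50979401-51028566. Those of storage are FTH1 at chr11:61959718-61967660, FTL at chr19:48965301-48966878 and NCOA4 at chr10:46005088-46030714, and SLC40A1 is at chr2:189560579-189583758. Those of sensing are ACO1 at chr9:32384603-32454769, IREB2 at chr15:78437431-78501456 and FBXL5 at chr4:15604539-15681679.

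Ferritin dominated the 10 genes in vehicle-treated cells. Per kilobase of exon in the first vehicle, with library sizes adjusted by TMM here and for the 10 genes throughout, FTL, the ferritin light chain, averaged 8707 ± 475 CPM per kb, and FTH1, the heavy chain that oxidises iron, 1991 ± 169 CPM per kb (SD, n = 3). NCOA4, which delivers ferritin to autophagy, followed at 35.9 ± 0.732 CPM per kb and TFRC at 27.8 ± 1.38 CPM per kb. STEAP3, the endosomal ferrireductase, averaged 13.8 ± 0.412 CPM per kb and IREB2 12.6 ± 0.649 CPM per kb. The lowest 4 were FBXL5 at 6.98 ± 0.388, SLC40A1 at 6.93 ± 0.358, ACO1 at 6.47 ± 0.255 and SLC11A2 at 5.11 ± 0.0909 CPM per kb. Ferritin has many processed pseudogenes, and the counting shares reads among matching copies. The 25 FTH1 and 16 FTL pseudogene rows held at most 0.979% and 0.556% of their parent's counts in any library. FTH1 shares 1267 exon bases with BEST1 on the opposite strand, which reached at most 72.2 CPM. Whether strand entered the counting is not given in the sources used here, so FTH1 carries that uncertainty.

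**Figure D1:**
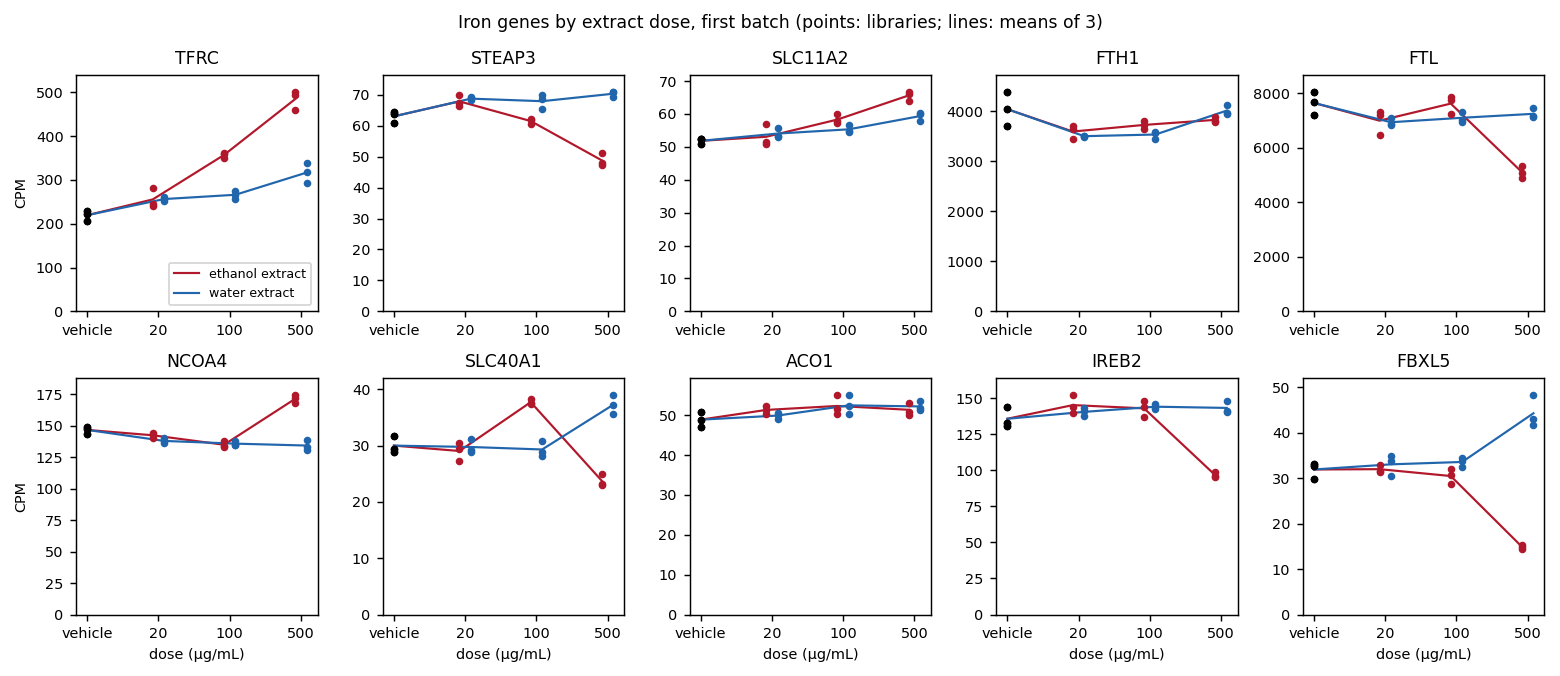
Level in CPM (linear axis from 0) of each of the 10 genes against extract dose in the first batch, with vehicle at the left; points are single libraries, lines join means of 3. At 500 µg/mL TFRC stood at 459 to 500 CPM with the ethanol extract and FBXL5 at 14.4 to 15.4 CPM, each outside the range of all other groups.

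Every extract group had at least 2 of the 10 genes past the test (edgeR quasi-likelihood, Benjamini-Hochberg adjusted p under 0.05 over 16854 genes). With the ethanol extract at 20 µg/mL 2 genes passed, 1 higher and 1 lower, against 7.45% of all genes tested (3.63% higher and 3.82% lower). At 100 µg/mL 4 passed, 3 higher and 1 lower, against 17.5% of all genes (8.26% higher and 9.23% lower). At 500 µg/mL 8 passed, 3 higher and 5 lower, against 69.1% of all genes (34.7% higher and 34.4% lower). With the water extract at 20 µg/mL 3 passed, 2 higher and 1 lower, against 9.51% of all genes (4.26% higher and 5.25% lower). At 100 µg/mL 3 passed, 1 higher and 2 lower, against 12.6% (5.58% higher and 6.98% lower). At 500 µg/mL 6 passed, 5 higher and 1 lower, against 21.1% (9.7% higher and 11.4% lower). The ethanol count at 500 µg/mL is close to its background, since most genes passed there. The median size of the log2 change over the 10 genes was 0.36 with the ethanol extract at 500 µg/mL, against 0.44 over all genes tested, and 0.14 with the water extract, against 0.14. TFRC alone passed in all 6 groups, and ACO1 in none.

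TFRC, the transferrin receptor, rose at every dose of both extracts, and its mean was higher at each higher dose. In the vehicle libraries it stood at 223, 228 and 207 CPM. In the ethanol series it stood at 282, 244 and 240 CPM at 20 µg/mL, 362, 349 and 359 CPM at 100 µg/mL and 494, 500 and 459 CPM at 500 µg/mL. In the water series it stood at 257, 261 and 251 CPM at 20 µg/mL, 266, 275 and 257 CPM at 100 µg/mL and 318, 339 and 292 CPM at 500 µg/mL. No treated library overlapped the vehicle range in any of these 6 groups. The order of the 7 group means ran from the ethanol extract at 500 µg/mL through ethanol at 100, water at 500 and water at 100 µg/mL to the 20 µg/mL groups and vehicle. The neighbours whose libraries overlapped were water at 100 and 20 µg/mL, and the 20 µg/mL groups of the 2 extracts. Against vehicle, the log2 change at 20, 100 and 500 µg/mL was 0.22 ± 0.06, 0.70 ± 0.06 and 1.14 ± 0.06 with the ethanol extract (SE; adjusted p by edgeR with Benjamini-Hochberg 0.0216, 5.73e-08 and 2.12e-14). It was 0.22 ± 0.06, 0.28 ± 0.06 and 0.53 ± 0.06 with the water extract (adjusted p 0.0164, 0.00297 and 1.38e-06). The 20 µg/mL calls were the weak ones. The ethanol call at that dose was lost without vehicle replicate 3 or ethanol replicate 1 (adjusted p up to 0.154) and when the groups were fitted alone (0.142). The water call was lost without vehicle replicate 3, water replicate 1 or water replicate 2 (up to 0.104). The highest dose exceeded the lowest by 0.92 ± 0.06 on the log2 scale for the ethanol extract (adjusted p 9.33e-13) and by 0.31 ± 0.06 for the water extract (adjusted p 0.00355).

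STEAP3, which reduces iron released from transferrin in the endosome, moved in opposite directions at the highest dose of the 2 extracts. With the ethanol extract at 500 µg/mL it stood at 47.2, 48.1 and 51.1 CPM. With the water extract at 500 µg/mL it stood at 70.8, 69.4 and 70.9 CPM, against 64.5, 60.9 and 63.6 CPM in vehicle. All 3 ethanol libraries were below and all 3 water libraries above the vehicle range. Its log2 change was -0.37 ± 0.04 with the ethanol extract (edgeR adjusted p 1.09e-08) and 0.16 ± 0.04 with the water extract (adjusted p 0.0046). At 20 and 100 µg/mL the water libraries also lay above the vehicle range, at 68.3 to 69.1 and 65.4 to 69.9 CPM. Those of the ethanol extract at 20 µg/mL did too, at 66.4 to 69.8 CPM. The water extract at 500 µg/mL exceeded that at 20 µg/mL by 0.03 on the log2 scale, not past the test. Against vehicle, the log2 change was 0.11 and -0.04 with the ethanol extract at 20 and 100 µg/mL, neither past the test. It was 0.12 and 0.11 with the water extract at these doses. Only the water value at 20 µg/mL passed (adjusted p 0.0399), and it was lost with DESeq2, without the filter on low counts, in a fit of those groups alone (adjusted p up to 0.139) and without any of vehicle replicates 2 and 3 and water replicates 1, 2 and 3 (up to 0.109).

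SLC11A2, the divalent metal transporter DMT1 that moves iron out of the endosome, rose modestly. With the ethanol extract at 500 µg/mL it stood at 66.2, 66.6 and 64.03 CPM and at 57.7 to 60.3 CPM in the 3 libraries of the water extract, against 52.4, 50.8 and 52.3 CPM in vehicle. Both treated groups lay above vehicle without overlap. Relative to vehicle this was 0.34 ± 0.04 with the ethanol extract (log2, SE; edgeR adjusted p 1.36e-07) and 0.20 ± 0.04 with the water extract (adjusted p 0.00193). At 100 µg/mL the ethanol extract gave 0.17 ± 0.04 (adjusted p 0.00687), and the other 3 lower-dose groups, at 0.03 to 0.09, did not pass. All 3 uptake genes thus passed with both extracts at 500 µg/mL, with STEAP3 lower in the ethanol group.

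The 2 ferritin chains did not move alike. FTL stood at 4902, 5067 and 5339 CPM with the ethanol extract at 500 µg/mL and 7121, 7162 and 7455 CPM with the water extract, against 7678, 7212 and 8044 CPM in vehicle. All 3 ethanol libraries lay below the vehicle range, as did 2 of the 3 water libraries. Its log2 change was -0.58 ± 0.05 with the ethanol extract (edgeR adjusted p 1.21e-10) and -0.08 ± 0.05 with the water extract (adjusted p 0.261). In the ethanol series the fall passed the test at the highest dose alone, with means of 6995 ± 453, 7621 ± 333 and 5103 ± 221 CPM at 20, 100 and 500 µg/mL (SD, n = 3). None of the 4 lower-dose groups passed, and they ranged from -0.14 to -0.0044 on the log2 scale. At 20 µg/mL other settings made a call of FTL lower. The ethanol value (-0.13, adjusted p 0.0993) passed without the filter on low counts (0.0341), and the water value (-0.14, adjusted p 0.0601) passed without the filter (0.0143), with DESeq2 (0.0224) and with mitochondrial genes removed (0.0446).

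FTH1 passed at lower doses and not at the highest. At 500 µg/mL it stood at 3781, 3815 and 3889 CPM with the ethanol extract and 3965, 3952 and 4122 CPM with the water extract, against 4042, 3699 and 4384 CPM in vehicle. Both groups overlapped vehicle, with log2 changes of -0.08 ± 0.04 (edgeR adjusted p 0.115) and -0.01 ± 0.04 (adjusted p 0.906). At 20 µg/mL it stood at 3443, 3705 and 3636 CPM with the ethanol extract and 3506, 3489 and 3511 CPM with the water extract. At 100 µg/mL it stood at 3447, 3575 and 3584 CPM with the water extract. With the ethanol extract at 100 µg/mL it averaged 3727 CPM and did not pass (-0.12 ± 0.04, adjusted p 0.0675), but it passed with DESeq2 (adjusted p 0.0273). The other 3 lower-dose groups were past the test, with log2 changes of -0.17 ± 0.04 (adjusted p 0.0208), -0.21 ± 0.04 (0.00507) and -0.19 ± 0.04 (0.00566). The ethanol group overlapped vehicle in 1 library, and the vehicle libraries themselves ranged over 3699 to 4384 CPM. None of these 3 calls held when its groups were fitted alone (adjusted p 0.322, 0.0698 and 0.0621). The ethanol call was also lost without vehicle replicate 1 or 3 or ethanol replicate 1 (up to 0.137). The water extract at 500 µg/mL exceeded that at 20 µg/mL by 0.20 ± 0.04 on the log2 scale (adjusted p 0.0156), a call lost without water 20 µg/mL replicate 1, 2 or 3 or water 500 µg/mL replicate 3 (up to 0.0770).

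NCOA4, the receptor that carries ferritin to lysosomes for iron release, rose with the ethanol extract at 500 µg/mL to 174, 172 and 168 CPM, against 143, 149 and 147 CPM in vehicle. The log2 change was 0.23 ± 0.03 (edgeR adjusted p 1.75e-06) and the groups did not overlap. It was slightly lower with the ethanol extract at 100 µg/mL (-0.12 ± 0.03, adjusted p 0.0130) and with the water extract at 100 and 500 µg/mL (-0.11 ± 0.03 and -0.13 ± 0.03, adjusted p 0.0294 and 0.00821). These 3 small falls were lost in fits of those groups alone and without the filter on low counts, with adjusted p up to 0.115, 0.204 and 0.0820. The ethanol 100 µg/mL call was also lost without ethanol replicate 3 (0.0510). The water 100 µg/mL call was lost without vehicle replicate 2 or 3 or any of the 3 water libraries (up to 0.101).

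SLC40A1 encodes ferroportin, the cellular iron exporter, and its direction differed by extract and dose. In the ethanol series it stood at 30.5, 29.4 and 27.3 CPM at 20 µg/mL, 37.4, 37.5 and 38.2 CPM at 100 µg/mL and 24.9, 23.2 and 23.02 CPM at 500 µg/mL. With the water extract at 500 µg/mL it stood at 35.7, 38.95 and 37.2 CPM, against 31.8, 29.3 and 28.9 CPM in vehicle. The ethanol libraries thus lay above the vehicle range at 100 µg/mL and below it at 500 µg/mL, and the water libraries at 500 µg/mL lay above it. The log2 change was 0.33 ± 0.05 with the ethanol extract at 100 µg/mL (edgeR adjusted p 0.000174), -0.34 ± 0.06 at 500 µg/mL (8.07e-06) and 0.31 ± 0.05 with the water extract at 500 µg/mL (0.000249). The other 3 groups did not pass, at -0.05 to -0.02 on the log2 scale.

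FBXL5 had the greatest contrast of the 10 genes between the extracts. It stood at 14.4, 15.4 and 14.9 CPM with the ethanol extract at 500 µg/mL and 41.7, 48.3 and 42.96 CPM with the water extract at that dose, against 32.7, 29.9 and 33.2 CPM in vehicle. The 3 groups did not overlap one another. The log2 change was -1.10 ± 0.07 with the ethanol extract (edgeR adjusted p 7.89e-13) and 0.47 ± 0.06 with the water extract (adjusted p 9.72e-06). At 20 and 100 µg/mL all 4 groups overlapped vehicle, with means of 30.5 to 33.6 CPM and log2 changes of -0.07 to 0.07. FBXL5 shares 18 exon bases with FAM200B on the opposite strand, which reached at most 17.5 CPM.

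The genes of the iron regulatory proteins themselves behaved unlike each other. IREB2 stood at 95.2, 98.8 and 95.8 CPM with the ethanol extract at 500 µg/mL, against 133, 144 and 131 CPM in vehicle, with a log2 change of -0.49 ± 0.04 (edgeR adjusted p 4.24e-10). In the other 5 extract groups it lay at 0.05 to 0.10 on the log2 scale and did not pass. ACO1, whose product is the cytosolic aconitase when it holds an iron-sulfur cluster and an iron regulatory protein without it, averaged 51.4 ± 1.45 CPM with the ethanol extract at 500 µg/mL, 52.2 ± 1.12 CPM with the water extract and 48.9 ± 1.92 CPM in vehicle (SD, n = 3). Its 6 log2 changes were 0.03 to 0.10, with adjusted p of at least 0.119. The 95% intervals of these 6 values lay within -0.06 and 0.19, so a change of ACO1 above 0.19 on the log2 scale is outside all of them.

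Compared directly at 500 µg/mL, ethanol and water extract differed for 8 of the 10 genes, 3 higher and 5 lower with the ethanol extract, against 66.1% of all genes tested (32.7% higher and 33.3% lower). The log2 difference was 0.61 ± 0.06 for TFRC, 0.35 ± 0.03 for NCOA4 and 0.14 ± 0.04 for SLC11A2 (SE; edgeR adjusted p 1.35e-09, 1.71e-09 and 0.00369). It was -1.57 ± 0.06 for FBXL5, -0.65 ± 0.05 for SLC40A1, -0.57 ± 0.04 for IREB2, -0.53 ± 0.04 for STEAP3 and -0.51 ± 0.05 for FTL (adjusted p at most 1.6e-09). The median size of the difference was 0.52 over the 10 genes, against 0.41 over all genes tested. FTH1 and ACO1 did not pass, with 95% intervals of -0.16 to 0.02 and -0.11 to 0.07. At 100 µg/mL TFRC and SLC40A1 were higher with the ethanol extract, by 0.42 ± 0.06 and 0.37 ± 0.05 (adjusted p 0.000113 and 0.000277), against 1.77% of all genes (0.926% higher). SLC40A1 thus had opposite signs at the 2 doses. At 20 µg/mL 0 of the 10 genes passed with edgeR, against 0% of all genes, and DESeq2 also called 0 of the 10. With edgeR, 0 of the 10 and 735 of all genes had an unadjusted p under 0.05.

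**Figure D2:**
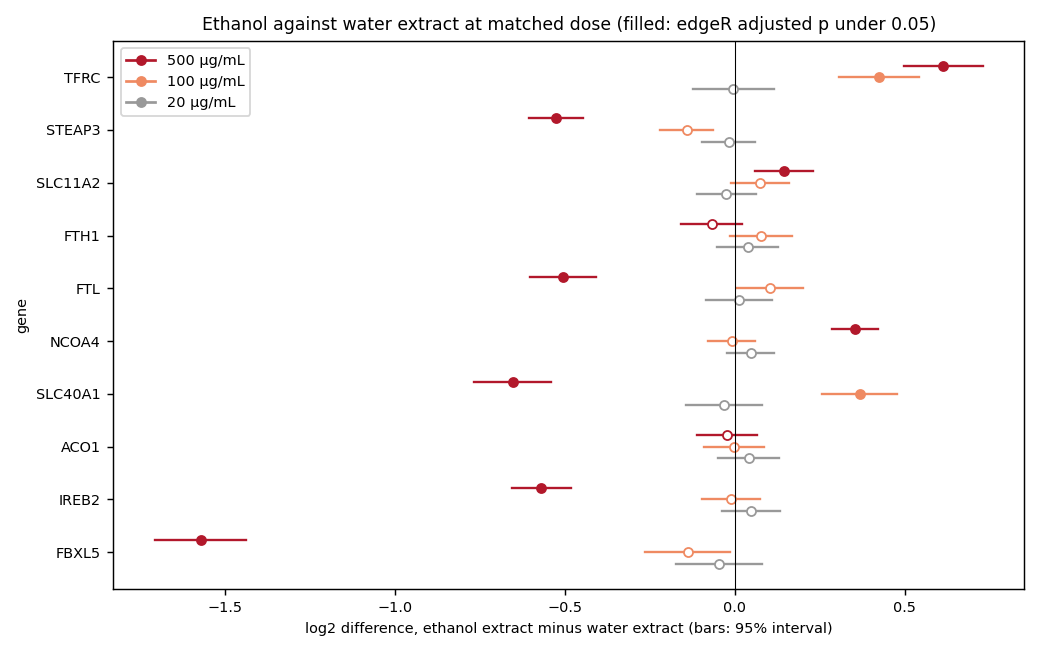
Log2 difference (horizontal axis, ethanol extract minus water extract) for each gene at 500, 100 and 20 µg/mL, top to bottom within a gene; points are edgeR estimates, bars 95% intervals and filled points passed the test. FBXL5 at 500 µg/mL (-1.57) is the farthest from 0, and the 20 µg/mL points all include 0 in their interval.

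Set within a series, the highest dose differed from the lowest for 8 genes with the ethanol extract, 3 higher and 5 lower, against 67.5% of all genes (34% higher and 33.5% lower). With the water extract it differed for 4, against 2.05% (0.997% higher). The 4 with the water extract were TFRC, FTH1, SLC40A1 and FBXL5, all higher at 500 µg/mL, by 0.31, 0.20, 0.33 and 0.42 on the log2 scale. The 8 with the ethanol extract were the genes that passed against vehicle at 500 µg/mL, with the same signs. These comparisons share their 500 µg/mL libraries with those against vehicle. The mitochondrial share was at most 15.3% in extract libraries and up to 18.5% in vehicle libraries, and the comparisons between doses do not use the vehicle libraries. Against vehicle, 7 to 12 of the 13 mitochondrially encoded genes were lower in each of the 6 extract groups. With those genes removed before scaling, 27 calls were made against vehicle in place of 26, and each of the 48 calls of the first batch was kept with its sign.

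Among other genes of iron and heme handling, the share past the test was near that over all genes for iron transport. Of 26 tested genes of iron transport and regulation, 10 were higher and 8 lower with the ethanol extract at 500 µg/mL (69.2%, against 69.1% of all genes), and 5 higher and 2 lower with the water extract (26.9%, against 21.1%). Their median log2 change was -0.04 with the ethanol extract and 0.11 with the water extract, against 0.00 and 0.01 over all genes. At 20 and 100 µg/mL 2 and 4 of them were higher with the ethanol extract (7.69% and 15.4%, against 7.45% and 17.5% of all genes) and 4 and 3 with the water extract (15.4% and 11.5%, against 9.51% and 12.6%), and 0 were lower. Of 22 genes of heme synthesis, transport and breakdown, 8 were higher and 10 lower with the ethanol extract at 500 µg/mL (81.8%; median -0.16) and 6 higher and 2 lower with the water extract (36.4%; median 0.09). Of 23 genes of iron-sulfur cluster assembly, 3 were higher and 15 lower with the ethanol extract (78.3%; median -0.26) and 0 higher and 5 lower with the water extract (21.7%; median -0.01). HMOX1, the heme oxygenase that frees iron from heme, went both ways. It averaged 59.4 ± 3.07 CPM with the ethanol extract, 281 ± 9.21 CPM with the water extract and 131 ± 5.32 CPM in vehicle, with log2 changes of -1.14 ± 0.05 and 1.10 ± 0.04 (edgeR adjusted p 3.84e-16 and 5.86e-14). The log2 changes of the other genes with the smallest p for the ethanol extract were 1.14 for SLC39A14 and 1.02 for SLC25A37, which carry metal ions across the plasma membrane and iron into mitochondria. They were -1.25 for FLVCR1, a transporter first described as a heme exporter, and -1.04 for ABCG2, an efflux pump that also moves porphyrins. For the water extract they were 0.40 for HERC2, a ubiquitin ligase, 0.24 for SLC46A1, a folate and heme carrier, -0.23 for GLRX5, an iron-sulfur cluster glutaredoxin, and -0.57 for BMP6, a ligand that in liver induces hepcidin.

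Likeness over the 6 extract changes was measured as the root mean square difference of log2 change, over 14161 genes with plain symbols. The nearest genes to TFRC were CCDC15 (0.0910), NEURL1B (0.122) and TNIK (0.126), against a median of 0.644. The nearest to FBXL5 were AK8 (0.0972), RCBTB2 (0.107) and GSAP (0.108), against a median of 0.526. The nearest to FTH1 were PRUNE (0.0398), SASS6 (0.0413) and N4BP2L2 (0.0413), and the nearest to FTL were PROSC (0.0268), FNBP4 (0.0368) and METTL25 (0.0370), against medians of 0.278 and 0.328. All 6 changes share the same vehicle libraries, so the measure describes these profiles and is not a test.

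Fewer of the 10 genes passed with single ingredients. Against the second vehicle, 9 calls were made over 24 comparisons and 10 genes (edgeR, Benjamini-Hochberg over 18324 genes), 1 higher and 8 lower, against 26 calls over 6 comparisons with the extracts. They lay in 6 of the 24 comparisons. Of the 9, 6 were FBXL5. In the other 18 comparisons 0 of the 10 genes passed with edgeR, and 0 to 4 of them had an unadjusted p under 0.05. The share of all genes that passed there was 0.0382% with albiflorin at each dose, 0.0327, 0.0218 and 0.0273% with benzoic acid at 0.4, 2 and 10 µM and 0.136, 0.229 and 0.191% with paeoniflorin. It was 4.66 and 0.0655% with catechin at 0.4 and 10 µM, 0.0709 and 0.611% with gallic acid at 0.4 and 2 µM and 0.0546 and 2.42% with hederagenin at 2 and 10 µM. It was 0.278 and 0.0873% with paeonol at 0.4 and 2 µM and 4.45% with oleanolic acid at 10 µM. DESeq2 made 17 calls, 10 of them FBXL5. Spread between libraries was wider in this batch, with a biological coefficient of variation of 0.212, against 0.0444 in the first.

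**Figure D3:**
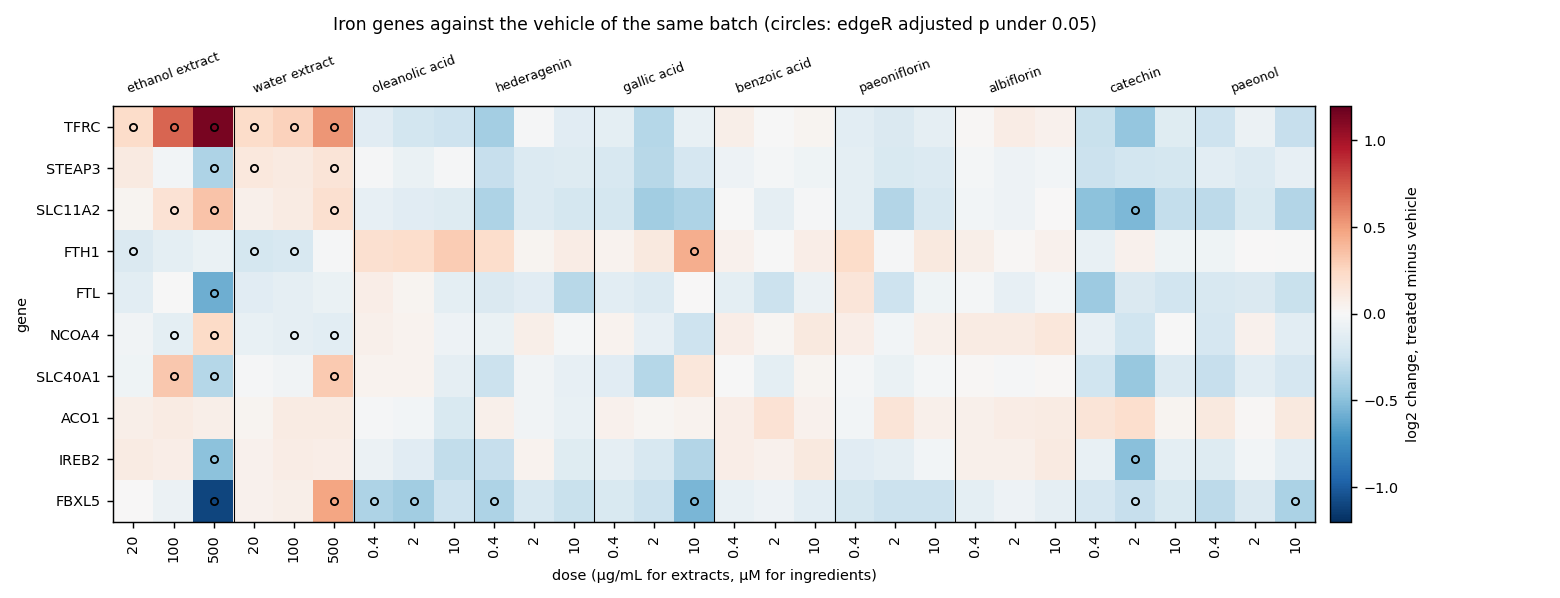
Log2 change against the vehicle of the same batch (colour, treated minus vehicle) for the 10 genes (rows) and 30 treated groups (columns, dose in µg/mL for extracts and µM for ingredients); circles mark edgeR adjusted p under 0.05. The TFRC row is positive in all 6 extract columns, and the FBXL5 row is negative in all 24 ingredient columns.

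FBXL5 lay below vehicle in every ingredient group. The 3 vehicle libraries stood at 33.01, 32.9 and 32.9 CPM, and the 72 ingredient libraries ranged from 21.4 to 32.5 CPM with a median of 28.4, so none reached vehicle. All 24 comparisons use those same 3 vehicle libraries, whose spread was small (SD 0.0698), and they are not 24 independent observations. At 0.4, 2 and 10 µM the means were 25.5, 24.7 and 27.7 CPM with oleanolic acid and 25.5, 28.8 and 27.4 CPM with hederagenin. They were 29.03, 27.4 and 22.6 CPM with gallic acid and 31.1, 31.6 and 30.3 CPM with benzoic acid. They were 28.6, 27.5 and 27.6 CPM with paeoniflorin, 30.4, 31.5 and 30.5 CPM with albiflorin, 28.6, 27.2 and 28.9 CPM with catechin and 26.5, 29.3 and 25.2 CPM with paeonol. Gallic acid was the one compound whose mean was lower at each higher dose, and its SDs at 0.4 and 10 µM were 1.72 and 1.31 CPM. All 24 changes were also below 0 with DESeq2, without the filter, with groups fitted alone and without the libraries with COL1A2 or with few mitochondrial counts.

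Gallic acid at 10 µM gave the lowest FBXL5 level among the ingredients, at 21.4, 23.97 and 22.4 CPM, against 33.01, 32.9 and 32.9 CPM in vehicle. The log2 change was -0.54 ± 0.08 (edgeR adjusted p 2.08e-05), and 2 of the 10 genes passed, against 13.5% of all genes (8.51% higher and 4.96% lower). The FBXL5 call held without any single library (adjusted p at most 0.00113) and was lost in a fit of those groups alone (0.221). The other gene was FTH1, at 5239, 5380 and 4570 CPM, against 3729, 3756 and 3732 CPM in vehicle, with a log2 change of 0.44 ± 0.14 (adjusted p 0.0320). The FTH1 call was lost without any 1 of the vehicle libraries or gallic acid replicate 1 (up to 0.244), without the filter on low counts and in a fit of those groups alone (up to 0.221). Mitochondrial shares of the 3 gallic acid libraries were 1.44, 15.5 and 2.07%, so replicate 2 stood apart from the others. Within this compound, 10 µM against 0.4 µM gave -0.36 ± 0.08 for FBXL5 (adjusted p 0.0171), the 1 call among the 8 comparisons of highest and lowest dose, where 0.557% of all genes passed (0.235% lower). It was lost without the filter, in a fit of those groups alone (0.661), without the COL1A2 libraries (0.0712) and without the libraries of few mitochondrial counts (0.0852). The log2 difference was -0.32 and -0.27 in the last 2 fits. Leaving out the libraries of few mitochondrial counts keeps only gallic acid replicate 2 at 10 µM. Resting on that 1 library, TFRC, FTH1 and SLC40A1 were higher at 10 µM, by 0.38, 0.49 and 0.58 on the log2 scale. The FBXL5 call was also lost without gallic acid 10 µM replicate 1 or 3 or 0.4 µM replicate 1 or 2 (adjusted p up to 0.249). In the other 7 such comparisons 0 of the 10 genes passed and 0 had an unadjusted p under 0.05, while 2.47% of all genes passed for oleanolic acid, 1.05% for hederagenin and 0% for the other 5.

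Catechin at 2 µM had 3 genes past the test, all lower, against 8.06% of all genes (3.55% lower). SLC11A2 stood at 32.1, 40.1 and 44.4 CPM, against 56.1, 57.5 and 55.9 CPM in vehicle, with a log2 change of -0.54 ± 0.18 (edgeR adjusted p 0.0496). IREB2 stood at 105, 118 and 124 CPM, against 161, 164 and 168 CPM in vehicle (-0.50 ± 0.15, adjusted p 0.0415). FBXL5 stood at 24.2, 29.9 and 27.6 CPM (-0.27 ± 0.08, adjusted p 0.0410). None of the 3 genes overlapped vehicle. All 3 calls were lost without catechin replicate 1 or any 1 vehicle library, and that of SLC11A2 also without catechin replicate 2 (adjusted p up to 0.183, 0.118 and 0.160 in that order of genes). They were lost without the filter too, and those of SLC11A2 and FBXL5 in a fit of those groups alone (up to 0.0844, 0.0761 and 0.184). The catechin libraries had mitochondrial shares of 0.486, 3.52 and 6.51%, and replicate 2 was 1 of the 4 with COL1A2. Without the 4 COL1A2 libraries, 5 genes passed for catechin at 2 µM, where 23.1% of all genes did. Without the libraries of few mitochondrial counts, which leaves catechin replicate 3, 7 passed, where 29.8% of all genes did. In that fit SLC11A2 was at -0.34, IREB2 at -0.40 and FBXL5 at -0.25, and FTH1 was higher at 0.35 on the log2 scale.

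The other 4 comparisons had FBXL5 as their 1 call. Oleanolic acid gave -0.37 ± 0.08 at 0.4 µM and -0.42 ± 0.08 at 2 µM (edgeR adjusted p 0.0283 and 0.00323), where 0.18% and 0.322% of all genes passed (0.0873% and 0.109% lower). Its libraries stood at 25.6, 25.2 and 25.6 CPM at 0.4 µM and 22.98, 25.5 and 25.6 CPM at 2 µM, with mitochondrial shares of 9.25 to 13.5%. Hederagenin at 0.4 µM gave -0.37 ± 0.08 (adjusted p 0.0128), where 3.05% of all genes passed (0.857% lower). Paeonol at 10 µM gave -0.38 ± 0.08 (adjusted p 0.0420), where 0.126% passed (0.0546% lower). The oleanolic acid call at 0.4 µM was lost without any 1 of its 6 libraries (up to 0.192) and that at 2 µM without oleanolic acid replicate 1 (0.101). The hederagenin call was lost without any 1 vehicle library or hederagenin replicate 2 (up to 0.0904), and the paeonol call without any 1 vehicle library or paeonol replicate 2 or 3 (up to 0.371). All 4 were lost without the filter on low counts, and those of hederagenin and paeonol also in fits of their groups alone (up to 0.308 for oleanolic acid at 2 µM, 0.942 at 0.4 µM, 0.225 for hederagenin and 0.446 for paeonol).

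TFRC, which passed in all extract groups, passed in 0 of the 24 ingredient comparisons with edgeR and with DESeq2, and 2 had an unadjusted p under 0.05. It passed, lower, in 3 comparisons when groups were fitted alone or the libraries of few mitochondrial counts were left out, and in 1 without the COL1A2 libraries. Its means ran from 203 CPM with catechin at 2 µM to 298 CPM with albiflorin at 2 µM, against 279 CPM in vehicle, and 19 of 24 log2 changes were negative, down to -0.46. STEAP3 was below vehicle in 24 of 24 comparisons (down to -0.33), SLC11A2 in 23, FTL in 20, SLC40A1 in 18, IREB2 in 17 and NCOA4 in 11. FTH1 and ACO1 were below it in 6 each. Without the libraries of few mitochondrial counts these numbers were 22 for STEAP3, 22 for SLC11A2, 16 for FTL, 15 for SLC40A1, 14 for IREB2, 4 for NCOA4, 0 for FTH1 and 8 for ACO1. The 18 libraries with few mitochondrial counts had lower medians than the other 57 for 9 of the 10 genes. The medians of SLC11A2 were 40.4 and 52.8 CPM, of TFRC 216 and 272 CPM, of IREB2 131 and 164 CPM and of FTL 5948 and 7922 CPM. ACO1 was the exception, at 55.96 and 52.6 CPM, and FBXL5 was nearly level, at 27.8 and 28.8 CPM. The part of this share in the changes was not tested beyond leaving those libraries out.

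**Figure D4:**
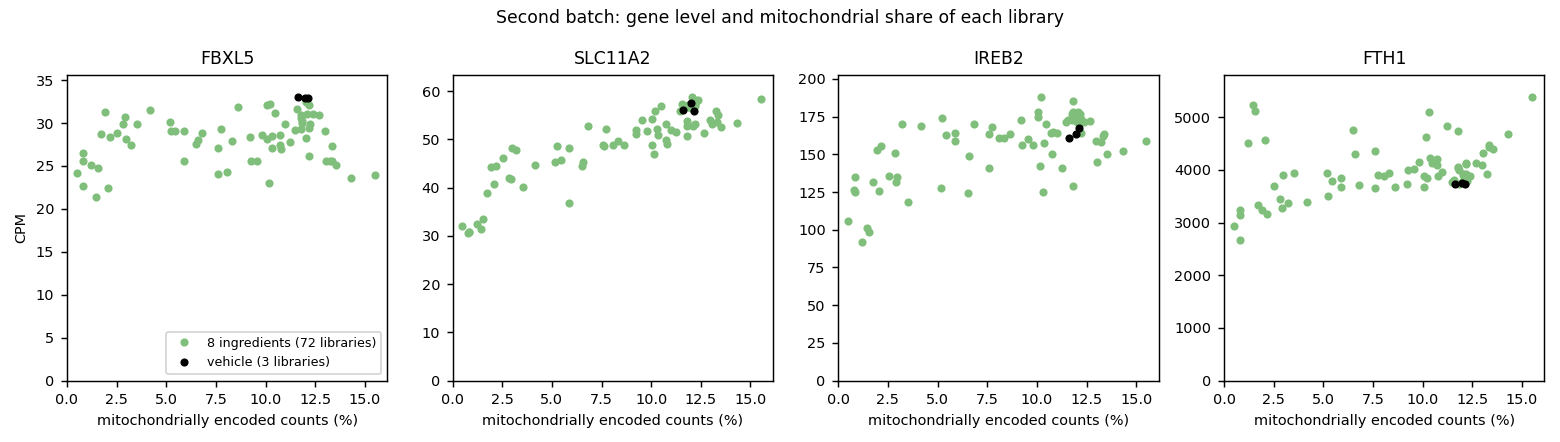
Level of FBXL5, SLC11A2, IREB2 and FTH1 in CPM (vertical axis, linear from 0) against the share of counts from mitochondrially encoded genes (horizontal axis, %) in each library of the second batch; green points are the 72 ingredient libraries and black points the 3 vehicle libraries. Each gene reaches its lowest level among libraries with a share under 5.03%, at 21.4, 30.6, 92.1 and 2664 CPM in that order of genes. FBXL5 is below vehicle at every share.

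With the 18 libraries left out, 4 groups kept 1 library each, which is then assumed to vary like the others, and 35 calls were made in place of 9. FBXL5 made up 13 of them and was below vehicle in 24 of 24 comparisons, and FTH1 made up 6, all higher, and was above vehicle in 24 of 24. STEAP3 and SLC11A2 made up 4 each, all lower. FBXL5 passed in all 6 ingredient groups where it had a call, at log2 changes of -0.25 to -0.48, while 1.23 to 29.8% of all genes passed there. In 3 of the 6, catechin at 2 µM, gallic acid at 10 µM and hederagenin at 0.4 µM, that value rests on 1 remaining library. The FTH1 calls in the same 3 groups rest on 1 library too. So do the STEAP3 calls with hederagenin at 0.4 µM and catechin at 0.4 and 2 µM. The SLC11A2 calls with catechin at 0.4 and 2 µM do as well. For oleanolic acid, the edgeR adjusted p of FBXL5 was 0.000449 at 0.4 µM and 4.35e-05 at 2 µM. In groups with a call that kept more than 1 library, the share of all genes past the test rose as well. It was 15.6% with gallic acid at 0.4 µM, 13.7% with hederagenin at 10 µM and 19.2% with oleanolic acid at 10 µM. With all libraries it was 0.0709%, 2.42% and 4.45%. The rise in calls was thus not confined to the 10 genes.

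Related ingredients were compared at matched doses in 3 pairs and 9 comparisons, with p-values adjusted over all genes of each. Gallic acid is benzoic acid with added hydroxyl groups on the ring. At 10 µM FBXL5 stood at 21.4, 23.97 and 22.4 CPM with gallic acid, against 30.6, 30.2 and 29.9 CPM with benzoic acid, without overlap. The log2 difference was -0.42 ± 0.08 (edgeR adjusted p 0.00174). IREB2 stood at 101, 159 and 126 CPM with gallic acid, against 177, 186 and 173 CPM with benzoic acid, a difference of -0.47 ± 0.15 (adjusted p 0.0395). These 2 calls stand against 8.7% of all genes (2.95% lower). The IREB2 difference was lost without any 1 benzoic acid library or gallic acid replicate 1 or 3 (adjusted p up to 0.485), and also without the filter on low counts. Both were lost in fits of the groups alone (up to 0.251 for FBXL5) and without the libraries of few mitochondrial counts (0.0813 for FBXL5 and 0.632 for IREB2), which leaves 1 gallic acid library. In that fit the difference was -0.33 for FBXL5 and -0.17 for IREB2, FTH1 and SLC40A1 were higher with gallic acid by 0.45 and 0.41 (adjusted p 0.00279 and 0.00971), and 0.793% of all genes passed. The other 8 genes did not pass, and their 95% intervals lay within -0.72 and 0.64. At 2 and 0.4 µM 0 of the 10 genes passed, as did 0% of all genes, with intervals within -0.72 and 0.50, and 2 and 0 of the 10 had an unadjusted p under 0.05.

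Hederagenin, which carries a hydroxyl group that oleanolic acid lacks, was compared with oleanolic acid, and 0 of the 10 genes passed at 10, 2 or 0.4 µM. The 95% intervals lay within -0.63 and 0.49, -0.58 and 0.59, and -0.66 and 0.29 on the log2 scale. Paeoniflorin and albiflorin, monoterpene glycosides that are isomers, were compared likewise, and 0 of the 10 genes passed at the same doses, with intervals within -0.55 and 0.39, -0.65 and 0.28, and -0.52 and 0.58. In these 6 comparisons 0 to 1 of the 10 genes had an unadjusted p under 0.05, and edgeR called 0.0109% of all genes for hederagenin against oleanolic acid at 10 µM and 0% in the other 5. The intervals leave room for differences as large as many of the changes with the extracts.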

How the data were processed

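RNA sequencing libraries of A549 cells were made with a directional kit, per the labels' protocols. The authors deposited one table of expected counts per gene. RSEM 1.3.3, STAR, Trim Galore, FastQC and the build GRCh38 (hg38) are named in the submitters' processing notes. Neither the annotation release nor the handling of strand is given in the sources used here. Expected counts were rounded. Each batch was fitted alone with edgeR 4.0.16 in R 4.3.3 (TMM factors, filterByExpr, quasi-likelihood F-test, no covariates), with Benjamini-Hochberg adjustment over all genes tested in a comparison and a threshold of 0.05. The residual degrees of freedom were 14 and 50. CPM of the 10 genes and of other named iron and heme genes use TMM-adjusted library sizes, and those of markers, COL1A2 and overlapping genes use total counts. The 52 comparisons were each dose against vehicle, highest against lowest dose, ethanol against water extract and 3 related ingredient pairs. All 10 members are reported. From 3 lists of other iron, heme and iron-sulfur genes, the text names, per extract at 500 µg/mL, the 5 with the smallest p past the test, and the 3 nearest genes to TFRC, FBXL5, FTH1 and FTL. Members and lists were chosen with earlier results of these data known. Alternatives were RLE factors, no filter, DESeq2 1.42.0, a replicate block, groups fitted alone, mitochondrial genes removed, ferritin pseudogene rows added to their parent, libraries with COL1A2 above 100 CPM or few mitochondrial counts left out, and each replicate left out (keeping the genes tested and the dispersion trend). The edgeR code was run on simulated counts for pairs of groups with a fixed dispersion. That setting differs from the fits of whole batches, so the run checks the code and not the changes reported here. Of 96 replicate pairs, 0 were identical.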

Additional observations from a re-analysis of the deposited data

Results flagged for a closer look

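The 2 extracts differed from each other in a direct edgeR test at 500 µg/mL for 8 of the 10 genes, against 66.1% of all genes tested. The log2 difference, ethanol minus water extract, was 0.61 for TFRC, -0.53 for STEAP3, 0.14 for SLC11A2, -0.51 for FTL, 0.35 for NCOA4, -0.65 for SLC40A1, -0.57 for IREB2 and -1.57 for FBXL5. At 100 µg/mL it was 0.42 for TFRC and 0.37 for SLC40A1, where 1.77% of all genes passed. The sign for SLC40A1 was the opposite of that at 500 µg/mL. Gallic acid and benzoic acid at 10 µM differed in the same test by -0.47 for IREB2 and -0.42 for FBXL5, gallic minus benzoic acid. There 8.7% of all genes passed (2.95% lower). Both calls were lost in fits of the groups alone and without the libraries of few mitochondrial counts. That of IREB2 was also lost without the filter on low counts and in 5 of 6 fits with 1 library left out.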

How the results depend on the processing

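No call on a single gene changed sign under any alternative run. Among the extract counts, that against vehicle moved most. Against vehicle there were 26 calls and 18 to 29 under other settings, with 21 to 32 when 1 replicate was left out. The 18 came from fits of the groups alone, where the 3 lower calls of FTH1 and the 3 of NCOA4 became 0. For highest against lowest dose there were 12 (11 to 13 with a replicate left out), and for ethanol against water extract 10 (10 to 11). Fits of the groups alone, with fewer samples, gave 1, 1 and 0 calls for the water extract at 100 and 20 µg/mL and the ethanol extract at 20 µg/mL, in place of 3, 3 and 2. With a replicate left out, these 3 counts were 2 to 4, 1 to 3 and 0 to 4. At 500 µg/mL they were 6 to 7 for the water and 8 to 9 for the ethanol extract, and at 100 µg/mL 3 to 5 for the ethanol extract. The ingredient results depended on the processing. The 9 calls against vehicle became 1 without the filter, 17 with DESeq2, 20 with groups alone, 17 without the COL1A2 libraries, 35 without the libraries of few mitochondrial counts and 2 to 14 with a replicate left out. The 1 call between highest and lowest dose became 0 without the filter, 0 with groups alone, 0 without the COL1A2 libraries, 6 without the libraries of few mitochondrial counts and 0 to 1 with a replicate left out. The 2 calls between related ingredients became 1 without the filter, 0 with groups alone and 1 to 4 with a replicate left out. These counts cover the 10 genes alone, and the share of all genes past the test also moved when libraries were left out. Without the COL1A2 libraries it was 23.1% for catechin at 2 µM against vehicle, in place of 8.06%. For gallic acid at 10 against 0.4 µM it was 0.442%, in place of 0.557%. The cause of these moves was not tested.

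Same-numbered libraries did not deviate together throughout. All 3 correlations were over 0.1 in 0 of 11 comparisons of the first batch and 3 of 41 of the second, and every library correlated best with its own number in 2 and 4. The replicate numbers were not taken as pairs. With a replicate block the calls were 29 against vehicle, 13 between doses and 11 between extracts for the extracts, and 9, 1 and 2 for the ingredients. The block ended none of the 60 single-gene calls. It added calls of FTL at 20 µg/mL of the ethanol and water extracts (adjusted p 0.0260 and 0.0133) and of FTH1 at 100 µg/mL of the ethanol extract (0.0305), all lower. It also added FTH1 between 500 and 20 µg/mL of the ethanol extract (higher, 0.0369) and STEAP3 between the ethanol and water extracts at 100 µg/mL (lower, 0.0416).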
